A study of Mus musculus with 4 samples.

Results

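Malignant cells of CT26 tumors are described here, as the cells that the authors of the deposited table had placed in the cluster named malignant. They were 3157 of 17674 cells, of which 2428 came from Cyp51-KO tumors and 729 from sg-Ctrl tumors. CT26 is a carcinogen-induced colon carcinoma line of the BALB/c mouse. Cyp51-KO cells had received Cas9 and a guide against *Cyp51*, and sg-Ctrl cells had received Cas9 and a control guide, both from a lentiviral vector that also encodes the blue fluorescent protein TagBFP. TagBFP served as the signal for sorting the transduced cells, and the sources read do not say whether single clones were picked. The transduced cells were placed in the colon of male BALB/c mice aged 8 to 10 weeks. Tumors were taken at day 26, 9 of the Cyp51-KO and 12 of the sg-Ctrl group. Leukocytes (CD45+), T cells (CD45+ CD3+) and tumor cells (CD45- BFP+) were sorted and mixed at 50%, 40% and 10%, and the mix was profiled by droplet single-cell RNA sequencing from the 5′ end of transcripts. For each cell the table gives the group, the cluster, the number of unique molecular identifiers (UMIs, each standing for a captured RNA molecule), the number of genes detected and the percentage of UMIs from mitochondrial genes.

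*Cyp51* encodes lanosterol 14-alpha demethylase, which removes a methyl group from lanosterol, the first sterol of cholesterol synthesis. Later enzymes turn its product through zymosterol and desmosterol, among others, into cholesterol, so a cell without the enzyme builds up sterols before this step and makes little of those after it. Cells may still take up cholesterol with lipoproteins. In these tumors the guides were carried by the transplanted CT26 cells, and the mice were not edited.

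The target site of the *Cyp51* guide is shown because it defines the knockout. It was read 5′ to 3′ from the *Cyp51* transcript (ENSMUSG00000001467.5) of GENCODE M21, with the motif required by Cas9 (NGG) in capitals.
Cyp51 target site: caagaccttcacttaccttcTGG
The 20 bases before the motif lie at chr5:4101303-4101322 of GRCm38, on the minus strand, in exon 3 of 10 (4101178 to 4101354), all of it coding sequence. Cas9 cuts 3 bases before the motif, which falls in codon 108 of 503.

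The deposited table holds no expression of single genes. The transcript of *Cyp51* and the marker genes of the cluster, *Timp1*, an inhibitor of metalloproteinases, and *Tm4sf1*, a membrane protein of the tetraspanin-like family, were therefore not analysed here, and neither the knockout nor the name of the cluster could be checked against expression. The study lists *Timp1* and *Tm4sf1* among the leading genes of the malignant cluster, together with the metallothioneins *Mt1* and *Mt2*, osteopontin (*Spp1*) and *Pcolce*, an enhancer of procollagen processing. The list for the other epithelial cluster, named intestinal cells, consists mostly of ribosomal protein genes and genes shared by many cells, such as *S100a6* and *Lgals1*, and *Def8* stands on both lists. Neither list names the epithelial genes *Epcam*, *Krt8*, *Krt18* or *Cdh1*, the intestinal genes *Vil1*, *Cdx2*, *Lgr5* or *Muc2*, or the leukocyte gene *Ptprc*. The lists hold only the few leading genes of each cluster, so a gene absent from them may still be expressed. The paper also shows marker genes of the clusters in a dot plot.

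There were 2 samples of each group by title, but a cell could be traced to its group alone, and no cell barcode occurred more than once within a group (0 repeats in each). Between the groups 98 barcodes were shared, 4 of them by a malignant cell in both. Each group was therefore taken as 1 sample. No test between the groups was possible and none is reported. Intervals are 95% intervals over cells, exact binomial for shares, exact Poisson for counts and from the ordered cells for medians. They cover counting error only, not the differences between tumors, sorts or libraries.

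Malignant cells were more frequent in the Cyp51-KO material, and how much more depended on the cells they were counted against. There were 30.7 malignant cells per 100 immune cells in Cyp51-KO tumors (range from the Poisson bounds 28.9 to 32.7) and 11.4 in sg-Ctrl tumors (10.3 to 12.6), which is a 2.69-fold difference. Against T cells, which were added from a sort of their own and may also come from the CD45+ sort, the difference was 3.01-fold (2.54 to 3.59). It was 2.28-fold against the other immune cells and 2.06-fold (1.66 to 2.55) against myeloid cells. The other cluster named epithelial, intestinal cells, is a reference of uncertain origin. The only CD45- cells sorted into the mix were BFP+, a gate meant to leave out cells of the mouse's own colon, and whether the intestinal cells carried the vector was not analysed here. Against them the difference was 1.46-fold, with a range that included no difference (0.862 to 2.45). Malignant cells were 94.1% of epithelial cells in Cyp51-KO tumors (2428 of 2581, 93.1 to 94.95%). The sg-Ctrl value was 91.6% (729 of 796, 89.4 to 93.4%), and the intervals overlapped. Since tumor cells were added to the mix at a set part (10%), these values describe the cells sequenced and kept by the authors' filters. Malignant cells were 23.2% of all cells in the Cyp51-KO and 10.1% in the sg-Ctrl group. At 6300 genes or more, near the filter's limit of 7000, lay 11.5% of Cyp51-KO and 29.8% of sg-Ctrl malignant cells. How many malignant cells that limit removed is not known, and its part in these values was not tested. The mix, the filter, the tumors and the knockout cannot be told apart in these values.

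**Figure D1:**
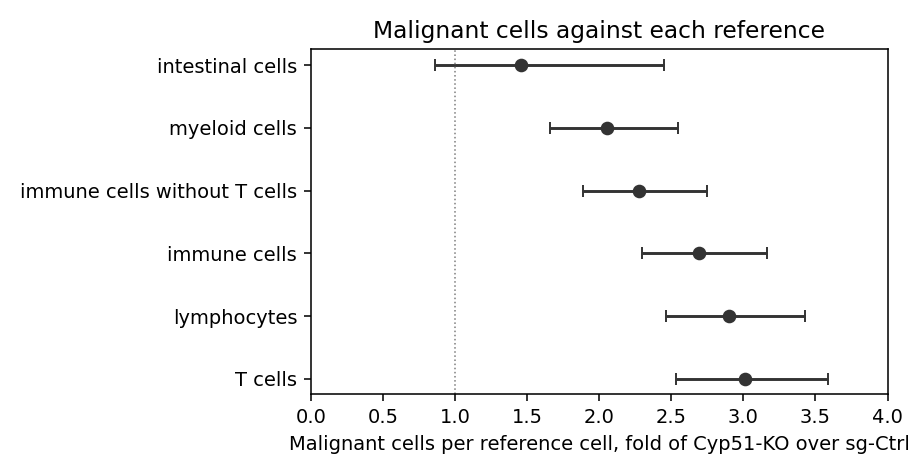
Fold difference, Cyp51-KO over sg-Ctrl, in the number of malignant cells per reference cell, for 6 references, with bars from the exact 95% Poisson bounds of the counts. The fold ran from 1.46 against intestinal cells, where the bar crosses 1 (dotted line), to 3.01 against T cells.

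The malignant cells were the cells richest in RNA. Of the 5% of all cells with the most UMIs (at least 56130 UMIs), 856 of 884 were malignant, 602 of 622 in Cyp51-KO and 254 of 262 in sg-Ctrl tumors. Malignant cells thus held a larger part of the RNA than of the cells. They were 23.2% of the cells and 62.3% of the UMIs in Cyp51-KO tumors, and 10.1% of the cells and 35.0% of the UMIs in sg-Ctrl tumors. A cell of any other cluster had 7306 UMIs on average in the Cyp51-KO and 9588 in the sg-Ctrl group.

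The median malignant cell of the Cyp51-KO group had 39624 UMIs (95% interval 38306 to 41137). That of the sg-Ctrl group had 45683 (43119 to 47802), which gives a log2 ratio of -0.21. The spread between cells of a group was far wider than this difference. The 25th and 75th percentiles were 21973 and 55966 UMIs for Cyp51-KO cells, and 28108 and 62136 UMIs for sg-Ctrl cells. In 57.4% of all pairs made of a Cyp51-KO and a sg-Ctrl malignant cell the Cyp51-KO cell had fewer UMIs. The lower end of the distribution differed more than its middle. Under 10000 UMIs lay 170 of 2428 Cyp51-KO malignant cells (6.02 to 8.09%) and 20 of 729 sg-Ctrl ones (1.68 to 4.21%), and the 10th percentile was 11917 against 17492 UMIs.

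**Figure D2:**
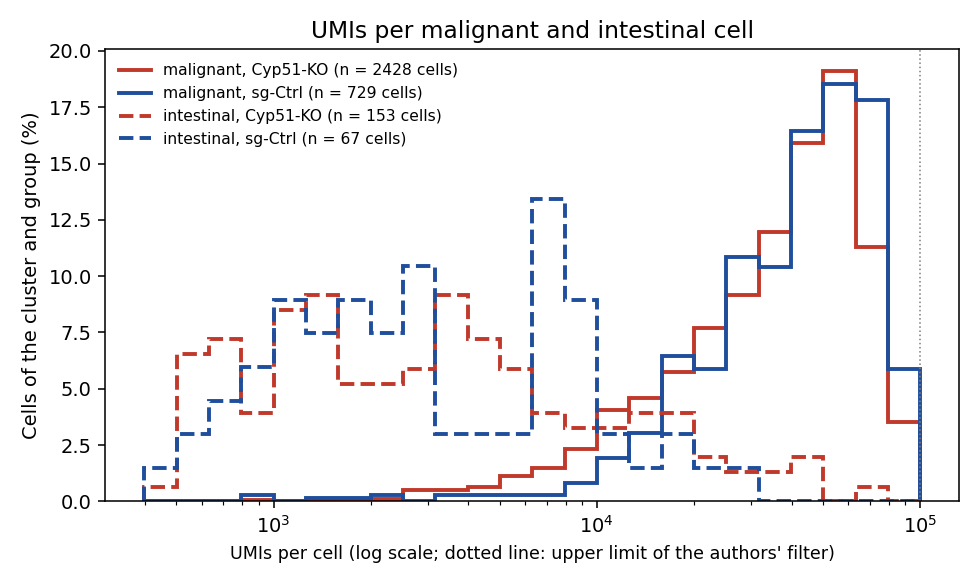
UMIs per cell (log scale, steps of 0.1 log10 units) of malignant cells (solid lines) and intestinal cells (dashed lines) in Cyp51-KO (red) and sg-Ctrl tumors (blue), as a percentage of the cells of each cluster and group. Malignant cells of both groups peak in the step from 4.7 to 4.8 log10 units, which holds 19.1% of the Cyp51-KO and 18.5% of the sg-Ctrl cells, whereas intestinal cells spread over lower values.

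This difference in UMIs was set beside the filters the authors had applied, because many malignant cells lay close to the upper limit of genes. Cells with over 7000 genes or over 100000 UMIs had been removed. Within 10% of the gene limit, from 6300 genes upward, were 29.8% of the sg-Ctrl malignant cells (217 of 729, 26.5 to 33.2%) and 11.5% of the Cyp51-KO ones (279 of 2428, 10.2 to 12.8%). Of all other cells only 34 of 6461 and 17 of 8056 lay there. Few malignant cells were within 10% of the UMI limit, 1.51% of the sg-Ctrl and 1.19% of the Cyp51-KO ones, with overlapping intervals. How many malignant cells the gene limit had removed is not known. Without cells of over 6000 genes, an alternative chosen after the data were seen, the median was 33318 UMIs for Cyp51-KO and 30978 for sg-Ctrl cells, a log2 ratio of 0.11 with a range that included no difference (-0.07 to 0.26). By its construction that alternative left out unequal parts of the groups, 18.8% of the Cyp51-KO and 40.3% of the sg-Ctrl malignant cells, and so lowered the sg-Ctrl median more. When the same part of each group was left out, the 5% of malignant cells with the most UMIs, the log2 ratio was -0.22. Leaving out equal parts shifts both medians in a like way, so that value cannot show what the gene limit did.

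Fewer genes were detected in Cyp51-KO malignant cells. The median was 4926.5 genes (95% interval 4845 to 4994) against 5697 in sg-Ctrl tumors (5566 to 5852), or 86.5% of the sg-Ctrl value. In 66.6% of the pairs of malignant cells the Cyp51-KO cell had fewer genes. Genes detected rise with UMIs (Spearman's rho over cells 0.94 in Cyp51-KO, n = 2428, and 0.91 in sg-Ctrl, n = 729, both measures coming from the same UMIs). The cells were therefore also compared in 10 bins, cut at the deciles of UMIs of all malignant cells. UMIs still varied within a bin, from 846 to 12813 in the first. The Cyp51-KO median was the lower one in all 10 bins, and in 9 of them the intervals lay apart.

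At matched UMIs the difference was largest in the third bin, counted from the fewest UMIs, and smallest in the tenth, near the gene limit. In the third bin, with a median of 23303 UMIs, 3848 genes were detected in Cyp51-KO (248 cells, 3759 to 3929) and 4505 in sg-Ctrl cells (67 cells, 4454 to 4646), a log2 ratio of -0.23. In the tenth bin, with a median of 77174 UMIs, the medians were 6523 and 6740 genes, a log2 ratio of -0.05. In that bin 77.1% of the Cyp51-KO and 91.0% of the sg-Ctrl cells had at least 6300 genes, whereas none of either group did in the third. The bin with the fewest UMIs held only 36 sg-Ctrl cells, and its intervals overlapped (2347.5 against 2663.5 genes). The mean log2 ratio over the bins was -0.14, which is 90.8% of the sg-Ctrl value.

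**Figure D3:**
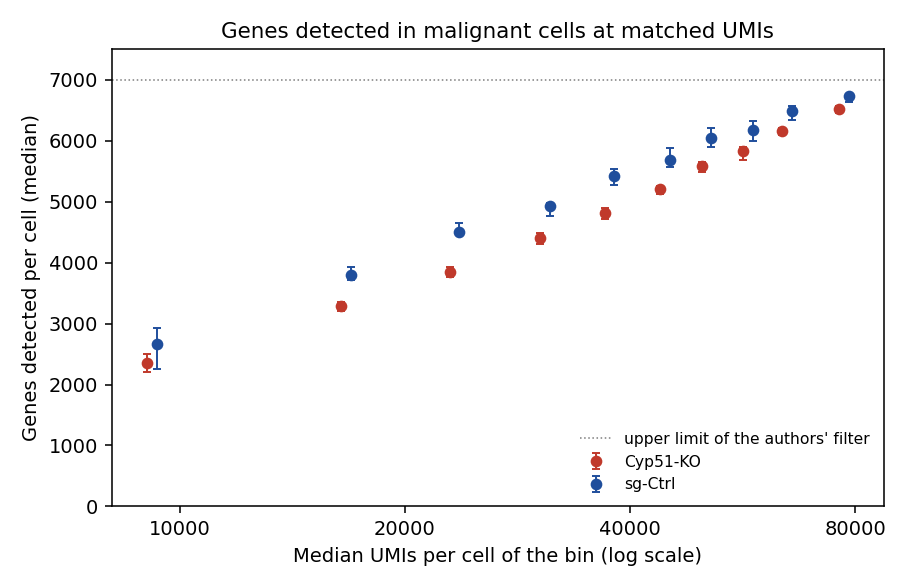
Median genes detected per malignant cell in 10 bins of UMIs per cell (log scale, bins placed at their median, the groups set slightly apart sideways to be seen), for Cyp51-KO (red) and sg-Ctrl tumors (blue), with 95% intervals of the median over cells and the filter limit of 7000 genes (dotted). The Cyp51-KO median is the lower one in all 10 bins, and the groups draw together toward the limit.

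Of the medians per cell of UMIs, genes detected and mitochondrial percentage, the last had the log2 ratio farthest from 0. Mitochondrial transcripts encode subunits of the respiratory chain and of ATP synthase, and the percentage is commonly used as a sign of damaged cells. The median Cyp51-KO malignant cell had 0.950% mitochondrial UMIs (95% interval 0.927 to 0.973%). For sg-Ctrl cells the value was 1.55% (1.50 to 1.60%), so the log2 ratio was -0.71. The 25th to 75th percentiles ran from 0.718 to 1.30% in Cyp51-KO cells and from 1.17 to 2.14% in sg-Ctrl cells, and so overlapped. In 77.0% of the pairs of malignant cells the Cyp51-KO cell had the lower percentage. In numbers of molecules, recovered from the percentage and the UMIs of each cell, this was 365 mitochondrial UMIs in the median Cyp51-KO cell (356 to 375) and 700 in the median sg-Ctrl cell (677 to 729). The gap in mitochondrial UMIs (log2 ratio -0.94) was thus wider than that in all UMIs (-0.21).

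Malignant cells with more UMIs had lower mitochondrial percentages in both groups, and the groups differed at each level of UMIs. When the cells of each group were divided by UMIs into 4 parts of equal size, the median of Cyp51-KO cells was 1.50% in the part with the fewest UMIs and 0.785% in the part with the most. The corresponding values of sg-Ctrl cells were 2.46% and 1.23%. In the 10 bins of matched UMIs the Cyp51-KO median was lower throughout, with separate intervals in 9 bins, the exception again being the bin with the fewest UMIs (1.58% against 2.07%). The log2 ratios of the bins ran from -0.40 to -1.12, with a mean of -0.76. The largest was that of the third bin, at 1.12% against 2.43%.

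The upper tail of the distribution showed the same order, and the lower tail did not. Above 2.5% mitochondrial UMIs were 3.95% of the Cyp51-KO (96 cells, 3.21 to 4.81%) and 17.4% of the sg-Ctrl malignant cells (127 cells, 14.7 to 20.4%). The authors had removed cells above 5%, and 5 malignant cells of each group lay within 10% of that limit. At the other end, cells with under 0.25% were rare in both groups, at 1.19% (29 cells) and 1.37% (10 cells) with overlapping intervals. These cells had few UMIs, with medians of 13873 and 12385.

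**Figure D4:**
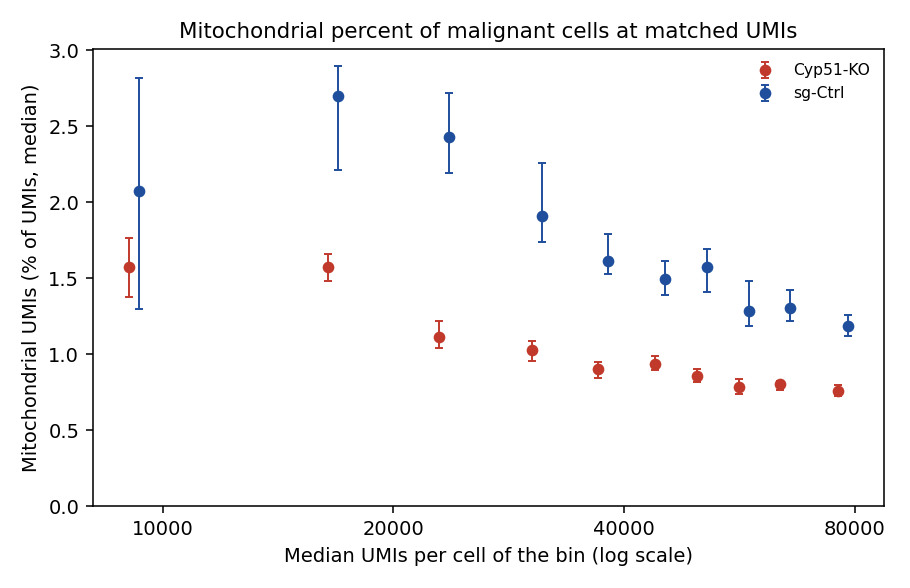
Median percentage of mitochondrial UMIs per malignant cell in 10 bins of UMIs per cell (log scale, bins placed at their median, the groups set slightly apart sideways to be seen), for Cyp51-KO (red) and sg-Ctrl tumors (blue), with 95% intervals of the median over cells. Both groups decline toward the cells with the most UMIs, and the Cyp51-KO median is the lower one in all 10 bins.

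Most other clusters moved in the same direction, so the values of malignant cells were placed among those of the 20 clusters. The median of UMIs per cell was lower in Cyp51-KO tumors in 18 clusters, with a median log2 ratio of -0.63, and 17 of them were lower by more than malignant cells (-0.21). The median mitochondrial percentage was lower in 17 clusters, with a median log2 ratio of -0.36 over the 20. Here malignant cells (-0.71) stood near the end, with only mast cells (-0.87) and CD8+ HSP+ T cells (-0.78) lower by more. In 5 bins of matched UMIs, 14 clusters had at least 10 cells of each group in every bin. The mean log2 ratio of genes detected was -0.17 in malignant cells, the lowest of the 14, close to intestinal cells (-0.17), proliferating T cells and Treg cells (both -0.14). That of the mitochondrial percentage was -0.79 in malignant cells, second to mast cells (-0.84), with a median of -0.36 over the 14. For genes detected, the Cyp51-KO median was lower in all 5 bins of malignant cells but in only 3 of 5 bins of intestinal cells. With more bins the malignant value for genes detected was nearer to those of the T cells, at -0.14 in 10 bins and -0.13 in 20. The other clusters were not compared in more than 5 bins, so this rank is known for 5 bins only. No difference between clusters was tested, and the part that sequencing depth or handling of the groups had in these values was not tested.

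**Figure D5:**
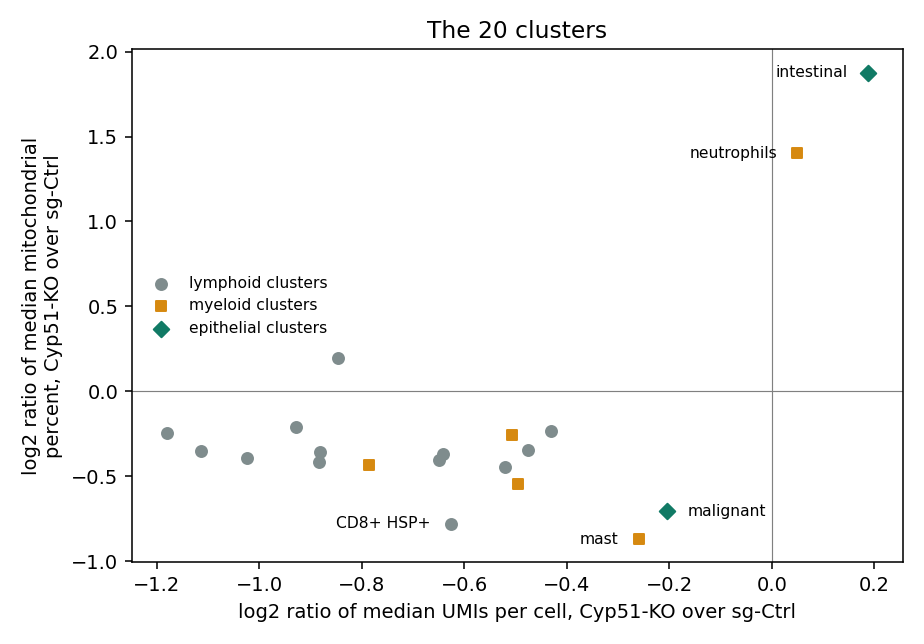
The log2 ratio of median UMIs per cell (horizontal) and of the median mitochondrial percentage (vertical), Cyp51-KO over sg-Ctrl, for each of the 20 clusters, by compartment. Malignant cells lie at -0.21 and -0.71, while most lymphoid and myeloid clusters lie further left and closer to 0 on the vertical axis.

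Intestinal cells had far less RNA than malignant cells. The Cyp51-KO group had 153 of them and the sg-Ctrl group 67. The median malignant cell had 13.2-fold the UMIs of the median intestinal cell in Cyp51-KO tumors and 17.3-fold in sg-Ctrl tumors, and 6.29-fold and 6.40-fold the genes. The distributions met at their ends. Of the intestinal cells, 24 in Cyp51-KO (15.7%, 10.3 to 22.4%) and 4 in sg-Ctrl tumors (5.97%, 1.65 to 14.6%) reached the 10th percentile of UMIs of the malignant cells of their group. The median intestinal cell had 3006 UMIs (2053 to 3658) under Cyp51-KO and 2640 UMIs (1932 to 4360) under sg-Ctrl, and these intervals overlapped. A mitochondrial percentage under 0.25% was found in 34.0% and 50.7% of intestinal cells, against 1.19% and 1.37% of malignant cells.

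The authors' SCTransform normalization brought the malignant cells to nearly equal totals. The median of corrected UMIs was 7649 in Cyp51-KO (25th to 75th percentile 7410 to 7848) and 7791 in sg-Ctrl cells (7567 to 7992). The Cyp51-KO cell still had fewer corrected UMIs in 63.1% of the pairs of malignant cells, against 57.4% for UMIs before correction. The number of genes left after correction was still lower in Cyp51-KO cells, with medians of 2285 (95% interval 2269 to 2307) and 2571 (2544 to 2603), a log2 ratio of -0.17. In 71.1% of the pairs of malignant cells the Cyp51-KO cell had fewer corrected genes. Across cells these corrected gene numbers barely followed the UMIs, with Spearman's rho of 0.08 in Cyp51-KO and -0.07 in sg-Ctrl cells. The paper states that the mitochondrial percentage was regressed out with SCTransform. Whether that step changed the corrected gene numbers was not checked.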

How the data were processed

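The paper's methods and the submitters' notes on processing state that reads were aligned by the authors to GRCm38 with Cell Ranger 7.0 and analysed with R 4.2.0 and Seurat 4.2.0. They kept cells with 200 to 7000 genes, 500 to 100000 UMIs and at most 5% mitochondrial UMIs, merged all samples, normalized with SCTransform, removed 5 small clusters of control cells and named 20 clusters. The deposited table holds raw UMI counts per cell, how many genes were detected, the percent of mitochondrial UMIs, and SCTransform totals, which are whole numbers made by the authors and were treated as a score. Any removal of doublets by the authors is not stated in the sources read, and none was attempted from totals.

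Malignant cells were taken by cluster name, and groups by the group name of each cell, whose barcodes carry the prefixes of the sample titles. The cells and lists were chosen with earlier results of these data known. No tests over cells were made, since cells are not replicates. Genes and mitochondrial percentages were compared in bins at the deciles of UMIs of all malignant cells. Cells could not be thinned to equal UMIs from totals. Ranges of ratios set the lower bound of a group against the upper bound of the other. Mitochondrial UMIs came out whole within 0.01 in 100% of cells. The genes named were those the design fixed, without values. Python 3.11.15, pandas 2.3.3, NumPy 2.4.6, SciPy 1.17.1 and Matplotlib 3.10.9 were used, and binning and intervals were tested on simulated data. The target site was located by the guide's place in the Cyp51 transcript of GENCODE M21, which is on GRCm38. Alternatives were filters on UMIs, genes and mitochondrial percent, other denominators, numbers of bins and means in place of medians.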

Additional observations from a re-analysis of the deposited data

Results flagged for a closer look

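The direction of a group difference in medians was opposite in malignant and intestinal cells for 2 measures. The log2 ratio of median UMIs per cell, Cyp51-KO over sg-Ctrl, was -0.21 in malignant and 0.19 in intestinal cells. That of the median mitochondrial percentage was -0.71 in malignant and 1.88 in intestinal cells, where the medians were 0.629% and 0.171%. With 153 and 67 intestinal cells, the intervals of their medians overlapped for both measures. The Cyp51-KO cell had fewer UMIs in 50.4% of the pairs of intestinal cells, so for UMIs the opposite direction rests on the medians alone. Neutrophils also had positive log2 ratios for both measures (0.05 and 1.40). The difference between the cell types was not tested.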

How the results depend on the processing

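Of 58 alternatives, 41 kept the direction and stayed within the range of the value reported, 14 moved outside it and 3 turned direction. The range used for the malignant share of all UMIs had the width of that for the share of all cells. No paired analysis was possible because a cell carries the name of its group alone, with no replicate number, and leaving out each library was not run for the same reason. The log2 ratio of median UMIs in malignant cells (-0.21) turned to 0.17 when, in either group, the 5% of cells richest in UMIs were left out, and to 0.11 (-0.07 to 0.26) without cells of over 6000 genes. These alternatives left out 20.9% and 18.8% of the Cyp51-KO but 46.4% and 40.3% of the sg-Ctrl malignant cells. Under them the log2 ratio of median genes (-0.21) was -0.086 and -0.12, that of the mitochondrial percentage (-0.71) was -0.94 and -0.82, and that of the malignant share of all cells (1.19) was 1.75 and 1.63. The log2 ratio of this share of all cells was 1.51 with at least 5000 UMIs and 1.38 with at most 2.5% mitochondrial UMIs. Without cells of over 6000 genes the log2 ratio of the share of epithelial cells (0.04) was 0.10. That of the share of all UMIs (0.83) was 1.48. For malignant cells per immune cell the log2 ratio (1.43) was 1.04 for myeloid cells only and 1.19 without T cells. The log2 ratio of the share near the gene limit (-1.37) was -2.02 within 5% and -0.79 within 20% of the limit. That of the share near the UMI limit (-0.34) turned to 0.59 within 5%. Leaving out the 5% of malignant cells with the most UMIs, or those with under 10000, turned no direction, though the first shifts the medians of both groups in a like way. These alternatives and the limit of 6000 genes were chosen after the data were seen. Numbers of cells limit the bins with few UMIs and the intestinal reference.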
